A study of Mus musculus with 18 samples.

Results

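The comparison set memory CD8 T cells cultured with IL-4 and IL-7 (2 arrays) against the same kind of cells cultured with IL-7 alone (2 arrays), 4 of the 18 Affymetrix arrays of the series, chosen by their titles. Both groups were F5 cells, which carry a transgenic T cell receptor, of the genotype labelled C57Bl/6. The memory cells, named TIM in the labels, were raised by repeated immunisation of naive F5 mice with the NP68 peptide, taken at day 45 and sorted from spleen by flow cytometry. The cultures were set up from 2 sorted memory populations. Both groups then spent 20 hours in culture, with IL-4 at 20 ng/mL and IL-7 at 10 ng/mL or with IL-7 at 10 ng/mL alone. The other arrays hold memory cells with IL-4 alone, in medium or ex vivo, and naive F5 cells with IL-4 and IL-7, with IL-7 or ex vivo. The sources used here do not give the age or number of mice, whether mice were pooled, or which array came from which population, so p-values measure the spread between arrays. In such bulk samples, fewer cells of a type and less RNA per cell cannot be told apart.

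IL-4 and IL-7 are cytokines whose receptors pair a private chain with the common gamma chain. IL-4 acts mainly through the transcription factor STAT6 and IL-7 mainly through STAT5, and both also switch on feedback inhibitors of the SOCS family. IL-7 keeps resting memory T cells alive, while IL-4 is best known for steering helper T cells, B cells and macrophages. CD8 T cells also carry the IL-4 receptor.

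Values are log2 RMA values, so a difference of 1 is a doubling, and 1 probe set stood for each gene. In all, 13770 genes were tested with limma, and a gene is said to have risen or fallen when its Benjamini-Hochberg adjusted p was under 0.05. At that threshold 249 genes passed (1.81% of those tested), of which 167 rose (1.21%) and 82 fell (0.595%). An unadjusted p under 0.05 was reached by 1953 genes. The risen genes had a median log2 difference of 1.38 and ran from 0.62 to 6.97, with 44 above 2. The fallen genes had a median of -1.31 and ran from -0.72 to -3.36, with 13 beyond -2. The median over all genes tested was 0.08, and with every array centred on its median 143 genes rose and 108 fell. The 2 arrays of each group lay apart from the other group's for all 249, but they did so upward for 34.3% and downward for 21.5% of all genes tested. All CD8 T cell markers measured lay above the filter value of 4.06 on all 4 arrays. So did 5 of 7 markers of B cells, 6 of 9 of myeloid cells and 4 of 5 of NK cells. The same held for 3 of 4 markers of CD4 T cells and 4 of 6 of red cell precursors and platelets. Lying above the filter therefore does not tell cell types apart. No gene of these other lists rose or fell, which does not measure RNA of other cells present in both groups.

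**Figure D1:**
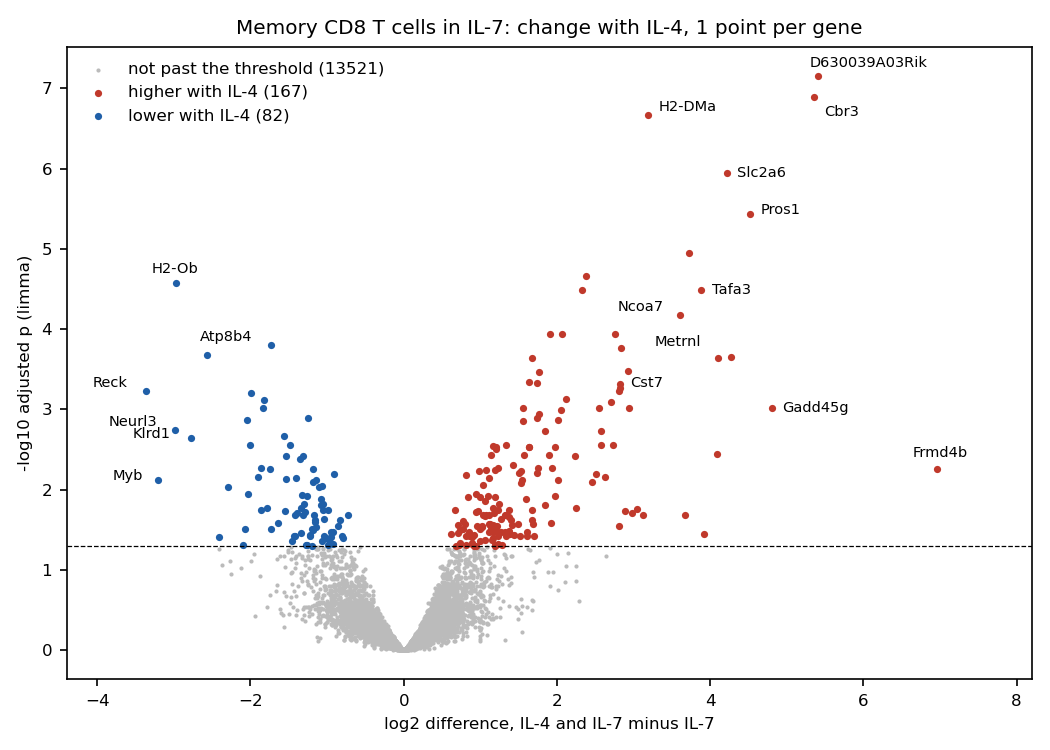
Each point is 1 of 13770 genes in memory CD8 T cells. The horizontal axis gives the log2 difference, IL-4 and IL-7 minus IL-7, the vertical axis gives -log10 of the adjusted p, and the dashed line marks an adjusted p of 0.05. The 167 genes that rose (red) reach 6.97 in Frmd4b, and the 82 that fell (blue) reach -3.36 in Reck.

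The arrays set the precision of these calls. The IL-4 and IL-7 arrays differed from each other with an SD of 0.357 over the genes tested and the IL-7 arrays with an SD of 0.262. Both IL-7 arrays lay closer to medium array 1 (SD 0.228 and 0.229) than to each other. Medium array 2, the other memory array labelled as cultured in medium, stood apart from both (SD 0.746 and 0.744) and from medium array 1 (0.742). It lay closer to the 4 arrays of ex vivo memory cells (SD 0.239 to 0.379), which goes against its label. It belongs to neither group here yet contributes to the error estimate, and without it 538 genes passed, all 249 among them. Without 1 array of the comparison, 147, 99, 76 and 78 genes passed when the array left out was the first or the second with IL-4 and IL-7, or the first or the second with IL-7. Of the 167 risen genes 40, and of the 82 fallen genes 14, passed in all 4 of these fits. These genes are called stable in the text that follows, and the highest adjusted p in the 4 fits is given for others. A gene said to have failed in all 4 fits passed with all arrays but lost its call whichever of these 4 arrays was left out. Each such fit leaves 1 group with a single array, whose spread is taken from the other groups. All 4 fits also keep medium array 2 in the error estimate. A call lost in them is therefore no measure of the spread between the compared arrays alone.

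Genes were grouped into 35 lists by function, chosen with earlier results of these data known. Their members made up 1522 of the genes tested, of which 74 rose and 32 fell (6.96%). Another 93 genes rose and 50 fell outside the lists (1.17%). Because the lists were chosen with results known, a list's share of calls does not show enrichment of its function. Signalling lists held 11 risen genes and no fallen one among 166 tested, and receptor lists held 6 risen and 9 fallen among 252, beside 167 risen and 82 fallen over all genes. Whether the lists differ in direction was not tested.

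**Figure D2:**
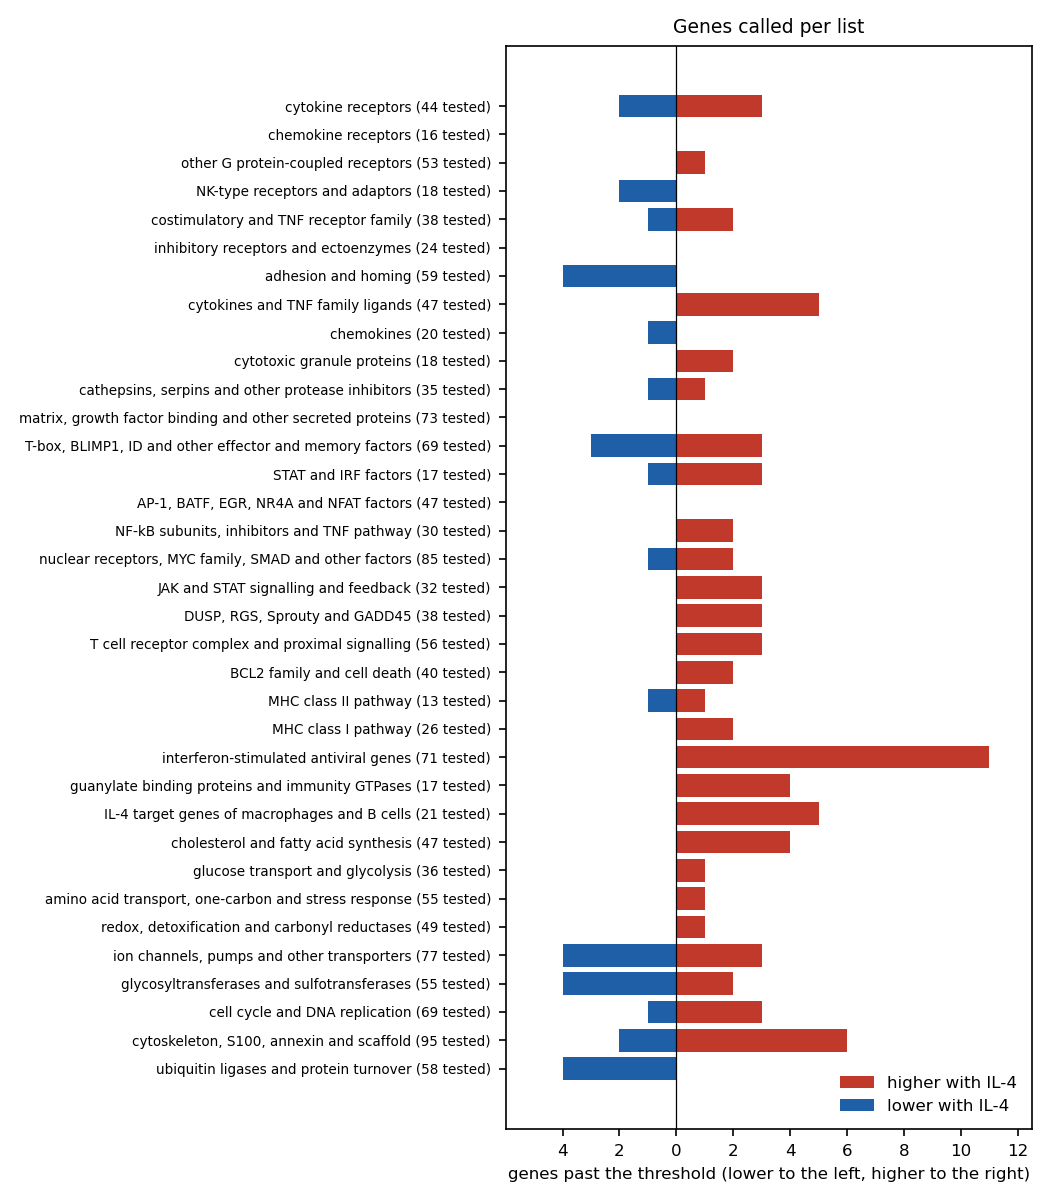
Bars count the members of each of 35 lists that passed, higher with IL-4 to the right (red) and lower to the left (blue), with the number of members tested beside each name. Interferon-stimulated antiviral genes had 11 risen members and no fallen one, and adhesion and homing genes had 4 fallen members and no risen one.

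Receptors changed in both directions. Of 44 cytokine receptor genes tested, 3 rose and 2 fell (median 0.11). Il4ra, the private chain of the IL-4 receptor itself, read 12.74 and 12.53 with IL-4 and IL-7, against 9.73 and 9.45 with IL-7, and Il2ra, the high-affinity chain of the IL-2 receptor, read 8.26 and 8.28 against 4.56 and 4.14. Il12rb1, a subunit shared by the IL-12 and IL-23 receptors, read 5.80 and 5.49 with IL-4 and IL-7, against 4.20 and 4.52 with IL-7, a rise of 1.28 (SE 0.31, adjusted p = 0.0489). The groups of all 3 genes lay fully apart, as they did for all 249 genes that passed. In medium, Il4ra read 9.32 on array 1 and 11.98 on array 2, and both arrays enter its error estimate.

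The 2 receptors that fell belong to the IL-1 family. Il18r1, the ligand-binding chain of the IL-18 receptor, read 9.64 and 9.72 with IL-4 and IL-7, against 11.30 and 11.15 with IL-7, and fell by 1.54 (SE 0.31, adjusted p = 0.0185). Il1rl2, the receptor for IL-36, read 6.08 and 6.07, against 7.54 and 7.28 with IL-7, and fell by 1.34 (SE 0.26, adjusted p = 0.0169). Il18bp, which encodes a secreted binding protein that neutralises IL-18, read 7.12 and 7.43 with IL-4 and IL-7, against 5.92 and 6.18 with IL-7, and rose by 1.23 (SE 0.20, adjusted p = 0.00529). Il2rb, the beta chain that IL-2 and IL-15 share, did not pass (0.74, adjusted p = 0.558). Neither did Il15ra (1.02, adjusted p = 0.0683) or Il7r, the private chain of the IL-7 receptor (-1.24, adjusted p = 0.0933). On medium arrays 1 and 2, Il7r read 13.41 and 11.88, and both arrays enter its error estimate. All 5 receptors passed only with all 4 arrays in the fit (highest adjusted p without 1 of them 0.145 to 0.382), and Il18bp did not pass without IL-4 and IL-7 array 2 (0.0769) or IL-7 array 1 (0.0917).

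Other surface receptors were mostly lower where they passed. No chemokine receptor passed (0 of 16, median 0.22), and Cxcr3, which brings effector and memory cells to inflamed tissue, read 12.60 and 13.27 with IL-4 and IL-7, against 12.58 and 13.10 with IL-7. Inhibitory receptors and ectoenzymes gave 0 of 24, with Pdcd1 and Lag3 near the filter value on all 4 arrays. Without medium array 2, Cd274 (1.15) and Entpd1 (1.41) passed, at adjusted p of 0.0114 and 0.0351.

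Of 53 further G protein-coupled receptors, Cysltr2, a receptor for cysteinyl leukotrienes, rose by 1.20 (adjusted p = 0.0498) and failed in all 4 fits (highest 0.362). S1pr1, the receptor that guides lymphocytes out of lymphoid tissue, read 8.93 and 8.33 with IL-4 and IL-7, against 9.90 and 10.38 with IL-7, and missed the threshold (-1.51, adjusted p = 0.0598). Its groups lay apart, as they did downward for 21.5% of all genes tested. Among NK-type receptors 2 of 18 fell and none rose. These were Klrk1 and Klrd1, which encode NKG2D and CD94, and both were stable. Klrd1 did not pass, however, when the model also allowed for the replicate number.

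Costimulatory receptors gave 2 risen and 1 fallen gene of 38. Treml2, a TREM family receptor, read 10.95 and 10.50 with IL-4 and IL-7, against 8.22 and 8.13 with IL-7, and its other 2 probe sets also rose past the threshold. Tnfrsf18, the gene of the costimulator GITR, read 11.79 and 11.43, against 10.66 and 10.22 with IL-7, and rose by 1.17 (SE 0.26, adjusted p = 0.0336). Cd84, a SLAM family receptor, read 6.87 and 6.82 with IL-4 and IL-7, against 8.34 and 8.42 with IL-7, and fell by 1.54 (SE 0.27, adjusted p = 0.00729). Treml2 was stable, Tnfrsf18 failed in all 4 fits (highest adjusted p 0.282), and Cd84 passed only in the fit without IL-4 and IL-7 array 1 (highest 0.0866).

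In the list of adhesion and homing genes 4 of 59 members fell and none rose (median 0.06), while Cdh1, counted among the IL-4 targets, rose. Spn, the gene of the sialomucin CD43, read 9.85 and 9.73 with IL-4 and IL-7, against 11.22 and 11.43 with IL-7, a fall of 1.53 (SE 0.24, adjusted p = 0.00375). Emb, an immunoglobulin family protein that partners lactate transporters, fell by 1.19, and Itgb7, the integrin chain used in homing to the gut, by 1.14. Lypd6b fell by 2.41. Spn did not pass without IL-7 array 2 (0.066) and Emb without IL-4 and IL-7 array 2 or IL-7 array 2 (highest 0.121), while Itgb7 and Lypd6b failed in all 4 fits (highest 0.276 and 0.254). Itga4, the partner chain of Itgb7, did not pass (-1.16, adjusted p = 0.302).

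**Figure D3:**
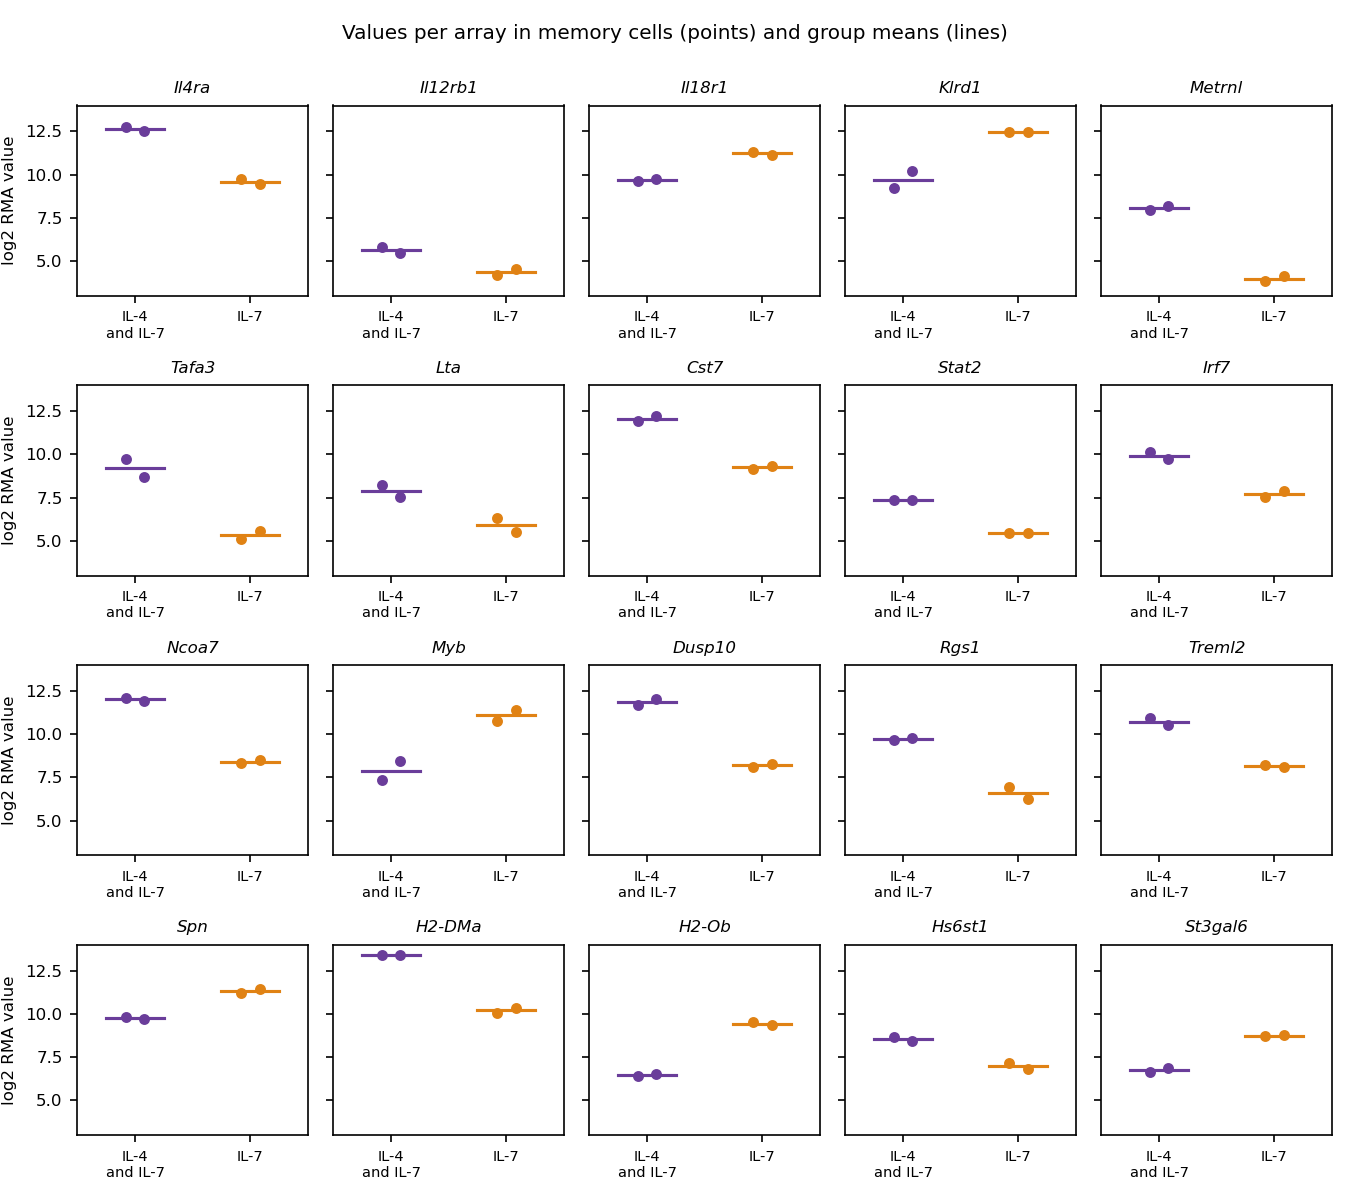
Points are the 2 arrays of each group and lines their means, on the log2 RMA scale, for 20 genes, with cells in IL-4 and IL-7 on the left and cells in IL-7 on the right. The groups lie apart for each gene shown, with IL-4 and IL-7 higher in 14 genes and lower in 6.

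Of 193 genes of secreted proteins 8 rose and 2 fell. Cytokine genes and their relatives that passed all rose, 5 of 47 tested (median 0.21). Metrnl, the gene of the secreted hormone meteorin-like, read 7.95 and 8.21 with IL-4 and IL-7, against 3.85 and 4.12 with IL-7, where its mean lay under the filter value. Tafa3, a small secreted protein of the TAFA family, read 9.74 and 8.70, against 5.12 and 5.56 with IL-7, and rose by 3.88 (SE 0.35, adjusted p = 3.25e-05). Both were stable.

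Lta, the gene of lymphotoxin alpha, read 8.26 and 7.53 with IL-4 and IL-7, against 6.32 and 5.53 with IL-7, and rose by 1.97 (SE 0.37, adjusted p = 0.0119). Lif, a cytokine of the IL-6 family, read 5.19 and 5.21, against 3.85 and 3.90 with IL-7, which is under the filter value. Lta did not pass without IL-4 and IL-7 array 1 (0.111) or IL-7 array 2 (0.166), and Lif failed in all 4 fits (highest 0.228). Cytokines that mark effector CD8 cells did not pass. Ifng, the gene of interferon gamma, read 10.36 and 10.04 with IL-4 and IL-7, against 9.89 and 9.75 with IL-7 (adjusted p = 0.799). Tnf (0.56) and Fasl (0.44) did not pass either, and Il2 lay under the filter value on all 4 arrays.

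Of 20 chemokine genes, Ccl5 fell by 1.63 and none rose. It read 10.13 and 10.58 with IL-4 and IL-7, against 12.03 and 11.95 with IL-7, and failed in all 4 fits (highest adjusted p 0.201). Among 18 cytotoxic granule genes 2 rose. Cst7, the gene of cystatin F, an inhibitor of granule cathepsins, read 11.92 and 12.23 with IL-4 and IL-7, against 9.18 and 9.35 with IL-7, and rose by 2.81 (SE 0.35, adjusted p = 0.000595). It was stable. Gzma, which encodes granzyme A, rose by 4.09 but did not pass without IL-4 and IL-7 array 2 (0.0565) or IL-7 array 1 (0.0589). Prf1, the gene of perforin, read 6.58 and 6.58 with IL-4 and IL-7, against 6.16 and 6.66 with IL-7, so the groups overlapped. Gzmb, which encodes granzyme B, differed more (2.24) but did not pass (adjusted p = 0.137). On medium arrays 1 and 2 it read 4.45 and 7.13, and both arrays enter its error estimate.

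Protease inhibitors and related proteins gave 1 risen and 1 fallen gene of 35. Pros1, the gene of protein S, an anticoagulant that also bridges dying cells to phagocytes, read 10.38 and 9.89 with IL-4 and IL-7, against 5.67 and 5.56 with IL-7. Reck, a membrane-anchored inhibitor of metalloproteases, read 5.66 and 5.05, against 9.07 and 8.36 with IL-7. Both were stable. None of 73 matrix proteins, growth factor binding proteins and other secreted proteins passed (median 0.11). Lgals3, the gene of galectin-3, had its largest difference, at 1.54 (adjusted p = 0.278).

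Transcription factor genes gave 10 risen and 5 fallen members of 247. Among 17 STAT and IRF factors and their partners, 3 rose and 1 fell (median 0.35). Stat2 read 7.38 and 7.35 with IL-4 and IL-7, against 5.47 and 5.47 with IL-7, and rose by 1.90 (SE 0.30, adjusted p = 0.00374). Irf9, a DNA-binding factor of the type I interferon response, read 8.91 and 8.94, against 7.21 and 7.25 with IL-7, and rose by 1.70 (SE 0.39, adjusted p = 0.0372). Irf7, a factor that drives interferon genes, read 10.13 and 9.72 with IL-4 and IL-7, against 7.52 and 7.86 with IL-7, and rose by 2.24 (SE 0.35, adjusted p = 0.00375). Stat2 was stable, Irf7 did not pass without IL-7 array 1 (0.0655), and Irf9 failed in all 4 fits (highest 0.244). Stat6, the main factor of IL-4 signalling, did not pass (0.26, adjusted p = 0.573), and neither did Stat5a (1.03, adjusted p = 0.458). Irf2bpl fell by 1.04 and failed in all 4 fits (highest 0.286).

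Factors of effector and memory differentiation gave 3 risen and 3 fallen genes of 69 (median -0.17). Myb, a factor of stem-like T cells and blood progenitors, read 7.33 and 8.42 with IL-4 and IL-7, against 10.78 and 11.39 with IL-7. It did not pass without IL-4 and IL-7 array 1 (0.085) or IL-7 array 2 (0.107). Zbtb20 fell by 1.23 and Klf6 by 0.86. The Ikaros family genes Ikzf3 and Ikzf4 rose by 1.18 and 1.22, and Runx1 by 0.89. These 5 genes failed in all 4 fits (highest adjusted p 0.188 to 0.368). The factors that define effector and memory states in CD8 cells did not pass: Tbx21 (0.58), Prdm1 (0.62), Id2 (-0.39), Id3 (-0.45) and Bach2 (-0.38). Eomes read 9.11 and 9.09 with IL-4 and IL-7, against 7.35 and 6.64 with IL-7, and did not pass through this probe set (adjusted p = 0.142). Gata3, the factor through which IL-4 steers helper T cells, did not pass (0.34, adjusted p = 0.616).

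No AP-1, BATF, EGR, NR4A or NFAT factor passed (0 of 47, median 0.03). Batf, which works with IRF4 in activated T cells, came nearest at 1.63 (adjusted p = 0.0549). Nr4a1 (0.27, SE 1.59) and Irf4 (1.32, SE 1.64) had wide errors, which are estimated from all groups. On medium arrays 1 and 2, Nr4a1 read 5.51 and 12.60, Irf4 read 5.61 and 8.97 and Batf read 7.96 and 8.98. The count of 0 therefore rests on an error estimate that includes medium array 2. Of 30 NF-kB pathway genes 2 rose. They were Otulin, a deubiquitinase of linear ubiquitin chains, by 1.07, and Birc3, a ubiquitin ligase of the TNF pathway, by 0.89. Otulin did not pass without IL-4 and IL-7 array 1 (0.0645) or IL-7 array 1 (0.0917), and Birc3 failed in all 4 fits (highest 0.258).

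Among 85 nuclear receptors, MYC family and other factors, 2 rose and 1 fell. Ncoa7, a coactivator of nuclear receptors, read 12.10 and 11.93 with IL-4 and IL-7, against 8.31 and 8.51 with IL-7, a rise of 3.61 (SE 0.35, adjusted p = 6.66e-05). It was stable. Xbp1, a factor of the unfolded protein response and of secretory cells, read 13.17 and 12.73, against 9.98 and 10.45 with IL-7, and its 3 other probe sets also rose past the threshold. It did not pass without IL-7 array 1 (0.0515). Nr3c1, the glucocorticoid receptor gene, read 8.88 and 8.94 with IL-4 and IL-7, against 9.72 and 9.71 with IL-7, a fall of 0.81 (SE 0.18, adjusted p = 0.038). Hsd11b1, whose enzyme regenerates active glucocorticoid, read 11.78 and 11.61, against 9.64 and 9.73 with IL-7, a rise of 2.01 (SE 0.28, adjusted p = 0.00133). Hsd11b1 was stable, and Nr3c1 failed in all 4 fits (highest 0.244).

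The 4 signalling lists held risen genes and no fallen one, while Igf1r, Pde7a and Rps6ka5, signalling genes outside them, fell. Of 32 JAK and STAT pathway genes, the feedback inhibitors Cish, Socs2 and Socs1 rose, the last by 1.60 (SE 0.30, adjusted p = 0.0132). Socs1 read 8.02 and 8.74 with IL-4 and IL-7, against 6.47 and 7.09 with IL-7, so the groups lay apart while the arrays within each differed by a similar step. It did not pass without IL-4 and IL-7 array 2 (0.178) or IL-7 array 1 (0.201), Socs2 without IL-4 and IL-7 array 1 (0.0789) or IL-7 array 2 (0.118), and Cish failed in all 4 fits (highest 0.204). Jak3, the kinase bound to the common gamma chain, did not pass (0.82, adjusted p = 0.262).

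The DUSP, RGS, Sprouty and GADD45 families gave 3 risen genes of 38. Gadd45g, whose protein activates stress kinases, read 12.14 and 11.63 with IL-4 and IL-7, against 7.31 and 6.86 with IL-7, and was stable. Dusp10, a phosphatase of the p38 and JNK kinases, read 11.70 and 12.04, against 8.12 and 8.28 with IL-7, and rose by 3.67 (SE 0.75, adjusted p = 0.0207). Rgs1, which turns off G protein signals from chemokine receptors, read 9.68 and 9.80 with IL-4 and IL-7, against 6.96 and 6.28 with IL-7, and rose by 3.12 (SE 0.63, adjusted p = 0.0206). Dusp10 and Rgs1 failed in all 4 fits (highest 0.177 and 0.197). Without medium array 2, both passed with adjusted p of 2.37e-07 and 1.99e-06.

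Of 56 genes of the T cell receptor complex and its proximal signalling, 3 adaptors or activators rose. Trat1, an adaptor that binds the receptor complex, read 8.52 and 8.03 with IL-4 and IL-7, against 6.20 and 5.44 with IL-7, and rose by 2.46 (SE 0.43, adjusted p = 0.00809). Rasgrp1, which activates Ras in response to diacylglycerol, rose by 1.44, and Sh2d2a, the adaptor TSAd, by 1.42. The receptor and coreceptor genes themselves did not pass, with Cd3e at 0.20 and Cd8b1 at 0.26. Trat1 did not pass without IL-4 and IL-7 array 1 (0.0774) or IL-7 array 2 (0.125), Sh2d2a without IL-4 and IL-7 array 1 (0.0504) or IL-7 array 1 (0.0756), and Rasgrp1 failed in all 4 fits (highest 0.257).

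Cell death genes gave 2 risen members of 40. Casp6, an effector caspase, rose by 1.23, and Bak1, a pore-forming member of the BCL2 family, by 0.84 (5.33 and 5.13 with IL-4 and IL-7, against 4.49 and 4.30 with IL-7). Both failed in at least 3 of the 4 fits (highest adjusted p 0.259 and 0.149). The survival genes Bcl2 (1.04), Mcl1 (0.27) and Bcl2l1 (0.46) did not pass through the probe sets used, and the arrays of Bcl2 in IL-7 lay far apart, at 11.20 and 9.72.

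Antigen presentation and interferon-stimulated genes gave 18 risen genes and 1 fallen gene of 127 (15%). The share was 6.96% over the members of all lists and 1.81% over all genes. These lists too were chosen with earlier results known, so the shares do not show enrichment. The class II pathway held opposite changes in 2 partner genes. H2-DMa, a chain of the H2-DM molecule that loads peptide onto class II, read 13.41 and 13.43 with IL-4 and IL-7, against 10.08 and 10.37 with IL-7, and rose by 3.19 (SE 0.18, adjusted p = 2.15e-07). H2-Ob, a chain of H2-O, the inhibitor of H2-DM, read 6.41 and 6.51, against 9.51 and 9.34 with IL-7, and fell by 2.97 (SE 0.26, adjusted p = 2.68e-05). Both were stable. The class II chains H2-Aa and H2-Ab1 and their activator Ciita lay near the filter value on all 4 arrays (3.30 to 4.93), and Cd74, the invariant chain, did not pass (0.51). B cells also express these genes, and 5 of 7 B cell markers lay above the filter value on all 4 arrays, with Ighm, the IgM heavy chain gene, at 12.62 and 12.72 with IL-4 and IL-7, against 12.37 and 12.67 with IL-7. The summed linear level of the 7 markers was 6773 and 7310 with IL-4 and IL-7, against 5719 and 6998 with IL-7, most of it Ighm. Cd79b read 8.49 and 8.79, against 8.22 and 8.56, Cd22 lay between 5.62 and 5.91, and Ms4a1, Cd79a, Pax5 and Blnk lay between 3.39 and 4.63, at or near the filter value. The part of B cells in these changes was not tested.

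Class I pathway genes gave 2 risen members of 26 (median 0.26). Psmb10, an immunoproteasome subunit, read 12.27 and 12.23 with IL-4 and IL-7, against 10.96 and 11.46 with IL-7, and Tap1, the peptide transporter, rose by 0.99 (SE 0.22, adjusted p = 0.0312). Tap1 failed in all 4 fits (highest 0.312) and Psmb10 passed only in the fit without IL-7 array 2 (highest 0.277). The class I chain gene H2-K1 (0.01) and B2m (-0.02) did not pass.

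Among 71 interferon-stimulated antiviral genes 11 rose and none fell (15.5%, median 0.40), and among 17 guanylate binding proteins and immunity GTPases 4 rose and none fell (23.5%, median 0.49). Ifi47, an immunity GTPase, read 12.64 and 12.19 with IL-4 and IL-7, against 10.70 and 10.60 with IL-7, and rose by 1.76 (SE 0.21, adjusted p = 0.000342). Zbp1, a sensor of nucleic acids with a left-handed helix, read 10.24 and 10.42, against 7.55 and 7.47 with IL-7. Gm4951, Rtp4, Zbp1, Ifi47 and Gbp2 were stable.

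Further interferon-stimulated genes rose. Dhx58, a regulator of RNA sensing, rose by 1.40, Xaf1 by 1.67, and Dtx3l, a ubiquitin ligase that works with Parp9, by 1.23. These 3 failed in all 4 fits (highest 0.171 to 0.327). Igtp rose by 1.20 and did not pass without IL-7 array 1 (0.062), and Irgm1, a regulator of vacuoles that hold bacteria, rose by 1.74 and passed only in the fit without IL-4 and IL-7 array 2 (highest 0.0757). Other interferon genes did not pass, among them Mx1 (0.55), Rsad2 (0.11) and Irf1 (1.10, adjusted p = 0.0759).

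Promoter windows of RefSeq (GRCm38.p6), 250 bases before to 50 bases after a gene's start, were searched on both strands for 3 motifs. The first, TTC and GAA with 4 bases of any kind between, is the wider STAT element that STAT6 prefers. The second, TTCNNNGAA, has 3 bases between and is the element of other STAT factors. The third, GAAA and GAAA with 2 bases between, is the core of the interferon-stimulated response element. Matches of different motifs may overlap. Of the 13770 genes tested, 11026 had a window, among them 133 of the 167 risen and 65 of the 82 fallen genes. The wider STAT element occurred for 12.8% of the risen genes with a window (17) and 10.8% of the fallen genes (7), against 6.58% of all genes tested. TTCNNNGAA occurred for 12.8% of the risen (17) and 7.69% of the fallen genes (5), against 8.23% of all. The interferon element occurred for 8.27% of the risen (11) and 6.15% of the fallen genes (4), against 3.65% of all. Genes with several windows counted once if any window held the motif, and no test was made. For a gene with several windows, the one shown is a window that holds the match.

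The 6 risen genes with the smallest adjusted p whose window held the wider STAT element are shown 5' to 3' on the gene's strand. Capitals mark the match. The windows are Pros1 at chr16:62854057-62854356, plus strand, Ncoa7 at chr10:30655818-30656117, minus strand, Smpdl3b at chr4:132757122-132757421, minus strand, Septin4 at chr11:87566439-87566738, plus strand, Plac8 at chr5:100563047-100563346, minus strand, and Stat2 at chr10:128270248-128270547, plus strand. Counted from the gene's start, the match begins at -222 in Pros1, the farthest, and at -153 in Plac8, the nearest.
Pros1: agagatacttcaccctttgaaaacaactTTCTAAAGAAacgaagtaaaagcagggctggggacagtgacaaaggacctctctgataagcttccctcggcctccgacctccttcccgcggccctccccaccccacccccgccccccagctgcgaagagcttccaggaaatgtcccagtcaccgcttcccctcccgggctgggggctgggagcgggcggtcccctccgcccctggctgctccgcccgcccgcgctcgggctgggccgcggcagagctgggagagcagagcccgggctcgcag
Ncoa7: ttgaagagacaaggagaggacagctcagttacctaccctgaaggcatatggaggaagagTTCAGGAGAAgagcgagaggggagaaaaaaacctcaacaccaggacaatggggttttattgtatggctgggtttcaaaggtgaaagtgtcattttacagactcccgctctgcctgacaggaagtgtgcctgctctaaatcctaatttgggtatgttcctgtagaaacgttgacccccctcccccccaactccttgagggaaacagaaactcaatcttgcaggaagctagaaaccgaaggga
Smpdl3b: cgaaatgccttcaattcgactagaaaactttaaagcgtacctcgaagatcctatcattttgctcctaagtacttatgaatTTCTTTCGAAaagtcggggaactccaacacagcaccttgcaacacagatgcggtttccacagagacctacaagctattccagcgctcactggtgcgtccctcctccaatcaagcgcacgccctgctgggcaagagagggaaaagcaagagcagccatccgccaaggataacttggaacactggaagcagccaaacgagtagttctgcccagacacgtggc
Septin4: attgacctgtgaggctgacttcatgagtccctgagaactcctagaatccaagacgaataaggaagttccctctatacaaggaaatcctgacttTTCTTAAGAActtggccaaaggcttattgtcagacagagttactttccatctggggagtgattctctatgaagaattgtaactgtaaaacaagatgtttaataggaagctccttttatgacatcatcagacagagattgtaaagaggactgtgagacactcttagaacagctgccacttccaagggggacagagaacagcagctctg
Plac8: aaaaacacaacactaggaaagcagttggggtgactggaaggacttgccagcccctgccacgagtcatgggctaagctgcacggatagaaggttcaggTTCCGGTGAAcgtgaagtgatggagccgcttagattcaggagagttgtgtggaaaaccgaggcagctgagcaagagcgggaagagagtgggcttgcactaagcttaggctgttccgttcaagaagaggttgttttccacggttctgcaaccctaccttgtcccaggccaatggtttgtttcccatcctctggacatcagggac
Stat2: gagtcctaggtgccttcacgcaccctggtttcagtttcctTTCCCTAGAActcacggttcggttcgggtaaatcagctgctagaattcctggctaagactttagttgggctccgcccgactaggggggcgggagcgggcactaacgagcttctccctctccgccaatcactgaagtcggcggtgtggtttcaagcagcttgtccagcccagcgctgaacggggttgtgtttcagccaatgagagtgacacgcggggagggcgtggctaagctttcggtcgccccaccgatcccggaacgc

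The 3 risen genes with the smallest adjusted p whose window held the interferon element were Ncoa7, Rab19 and Gbp2. For Ncoa7, whose whole window is given above, only the 40 bases around the match are shown (chr10:30655836-30655875, minus strand). Rab19 is at chr6:39381103-39381402, plus strand and holds 2 overlapping matches, and Gbp2 is at chr3:142620413-142620712, plus strand. Capitals mark the matches, which lie on the opposite strand in Rab19 and Gbp2.
Ncoa7: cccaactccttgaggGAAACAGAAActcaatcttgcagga
Rab19: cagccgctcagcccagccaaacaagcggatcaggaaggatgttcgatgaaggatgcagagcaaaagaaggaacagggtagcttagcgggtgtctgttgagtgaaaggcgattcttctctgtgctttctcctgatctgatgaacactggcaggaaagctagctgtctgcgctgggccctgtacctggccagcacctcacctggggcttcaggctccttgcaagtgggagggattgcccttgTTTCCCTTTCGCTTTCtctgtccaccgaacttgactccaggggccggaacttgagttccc
Gbp2: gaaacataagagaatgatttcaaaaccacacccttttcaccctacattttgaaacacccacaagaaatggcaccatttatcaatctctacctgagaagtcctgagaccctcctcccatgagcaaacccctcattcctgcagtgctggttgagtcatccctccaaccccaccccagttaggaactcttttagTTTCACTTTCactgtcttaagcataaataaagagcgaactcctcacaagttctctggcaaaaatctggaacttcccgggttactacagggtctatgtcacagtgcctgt

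A list of genes known as IL-4 targets in macrophages and B cells had 21 tested members, of which 5 rose and none fell (median 0.19). Besides Il4ra, Cish, Xbp1 and Socs1, these included Cdh1, the gene of E-cadherin, at 8.63 and 8.54 with IL-4 and IL-7, against 6.94 and 7.02 with IL-7. It rose by 1.61 (SE 0.36, adjusted p = 0.0372) and failed in all 4 fits (highest 0.253). Arg1, Fcer2a and Il4i1, textbook IL-4 targets in those cells, lay under the filter value on all 4 arrays, between 3.04 and 3.92.

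In the list of cholesterol and fatty acid synthesis 4 of 47 members rose and none fell (median 0.28). Mvd, an enzyme of the mevalonate pathway, read 9.25 and 9.37 with IL-4 and IL-7, against 7.56 and 7.53 with IL-7, and rose by 1.76 (SE 0.24, adjusted p = 0.00115). Fabp5, a fatty acid carrier, read 9.04 and 9.22, against 6.46 and 6.01 with IL-7, and rose by 2.89 (SE 0.57, adjusted p = 0.0185). Fdps and Dhcr7, further enzymes of cholesterol synthesis, rose by 1.06 (SE 0.22, adjusted p = 0.0214) and 0.91 (SE 0.21, adjusted p = 0.0366). Mvd was stable, and Fabp5, Fdps and Dhcr7 failed in all 4 fits (highest 0.168, 0.26 and 0.322). In the same pathway Fdft1 (0.87, adjusted p = 0.0841), Hmgcs1 (0.28) and Sqle (0.04) did not pass. Outside that list the lipid enzymes Ugcg, Cerk and Acsbg1, named after their values were seen, fell by 0.99, 1.30 and 1.06, and failed in at least 3 of the 4 fits (highest adjusted p 0.333, 0.173 and 0.289). Outside the lists, G0s2, an inhibitor of triglyceride lipase, read 9.01 and 9.59 with IL-4 and IL-7, against 6.23 and 6.52 with IL-7, and Smpdl3b, a membrane sphingomyelin phosphodiesterase, rose by 1.73. Both were stable.

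Glucose, amino acid and redox metabolism each had 1 risen gene. These shares of 2.78%, 1.82% and 2.04% lay near the 1.81% of all genes tested. These were the hexose transporter Slc2a6 (of 36 tested), Xbp1 (of 55) and Cbr3, a carbonyl reductase (of 49). Slc2a6 read 8.12 and 8.44 with IL-4 and IL-7, against 3.95 and 4.17 with IL-7, and Cbr3 read 10.27 and 10.21, against 4.82 and 4.96 with IL-7. Both were stable. Their relatives did not pass, with Slc2a1 at 0.40, Slc2a3 at -0.48 and Cbr1 at 0.07.

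Ion channels and pumps gave 3 risen and 4 fallen genes of 77 (median -0.07). Kcnk5, a background potassium channel, read 7.40 and 7.87 with IL-4 and IL-7, against 5.64 and 5.61 with IL-7, and rose by 2.01 (SE 0.35, adjusted p = 0.00746). Atp8b4, of the lipid flippase family, read 7.49 and 7.53, against 9.18 and 9.31 with IL-7, and fell by 1.74 (SE 0.18, adjusted p = 0.000156). Atp10d, of the same family, fell by 1.18. Atp1b1, the beta chain of the sodium pump, fell by 1.41 and Hvcn1, a voltage-gated proton channel, by 1.20. Atp8b4 was stable. Kcnk5 (highest 0.105) and Atp10d (highest 0.0747) passed only in the fit without IL-4 and IL-7 array 1, and Atp1b1 and Hvcn1 failed in all 4 fits (highest 0.086 and 0.219).

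Enzymes that build or trim surface glycans changed in both directions, 2 higher and 4 lower of 55 (10.9%, median 0.07). Hs6st1, a sulfotransferase of heparan sulfate, read 8.66 and 8.46 with IL-4 and IL-7, against 7.16 and 6.83 with IL-7, and rose by 1.56 (SE 0.22, adjusted p = 0.00138). St3gal6, a sialyltransferase, read 6.65 and 6.86, against 8.71 and 8.78 with IL-7, and fell by 1.99 (SE 0.25, adjusted p = 0.000629). Pxylp1, a phosphatase of the glycosaminoglycan linker, read 6.98 and 6.51 with IL-4 and IL-7, against 9.46 and 9.17 with IL-7, and fell by 2.57 (SE 0.28, adjusted p = 0.000211). All 3 were stable. Hs3st3b1, another heparan sulfate sulfotransferase, fell by 1.06, while Sulf2, a heparan sulfate sulfatase outside the list, rose by 1.91 (SE 0.19, adjusted p = 0.000113). Sulf2 was stable, and Hs3st3b1 passed only in the fit without IL-4 and IL-7 array 2 (highest 0.149).

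Cell cycle genes gave 3 risen members and 1 fallen member of 69 (median 0.10). Cdk6, a kinase of early G1, read 11.18 and 9.99 with IL-4 and IL-7, against 8.42 and 7.13 with IL-7. The arrays within each group lay more than 1 apart, by a similar step and with array 1 the higher in both groups. Pole2 and Mcm5, of the replication machinery, rose by 1.13 and 1.02, and Tob1, an inhibitor of T cell proliferation, fell by 1.17. All 4 failed in at least 3 of the 4 fits (highest adjusted p 0.179 to 0.273). Mki67, the gene of the proliferation marker Ki-67, lay at or under the filter value on all 4 arrays.

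Cytoskeletal and scaffold genes gave 6 risen and 2 fallen members of 95 (median -0.07). Frmd4b, a FERM domain scaffold, read 11.12 and 10.84 with IL-4 and IL-7, against 4.22 and 3.81 with IL-7. Frmd6, another FERM protein, read 10.01 and 9.05, against 7.14 and 7.43 with IL-7. S100a1, a calcium sensor, read 7.30 and 7.30 with IL-4 and IL-7, against 5.62 and 5.49 with IL-7, and rose by 1.74 (SE 0.24, adjusted p = 0.00127). S100a1 was stable. Frmd4b did not pass without IL-7 array 1 (0.0515) or array 2 (0.0726), and Frmd6 passed only in the fit without IL-4 and IL-7 array 2 (highest 0.17). Anxa5 and Ahnak fell by 1.20 and 2.29. Anxa5 failed in all 4 fits (highest 0.334) and Ahnak passed only in the fit without IL-4 and IL-7 array 1 (highest 0.114).

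In the list of ubiquitin ligases and protein turnover 4 of 58 members fell and none rose (median -0.17), while the ligases Dtx3l and Birc3, counted in other lists, rose. Neurl3 read 9.39 and 7.67 with IL-4 and IL-7, against 11.45 and 11.57 with IL-7, and was stable although its 2 arrays with IL-4 differed widely. Rnf144a fell by 1.32, Dtx4 by 1.05 and Marchf3 by 1.01, and each failed in at least 3 of the 4 fits (highest adjusted p 0.134, 0.154 and 0.292).

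Outside the lists, the largest rises included genes of growth control and kinase signalling. Rragd, a Rag GTPase that brings amino acid signals to mTORC1, read 8.29 and 7.39 with IL-4 and IL-7, against 5.23 and 4.57 with IL-7, and rose by 2.94 (SE 0.39, adjusted p = 0.000949). Wdr59, a subunit of the GATOR complex in the same pathway, read 9.11 and 9.13, against 6.82 and 6.68 with IL-7, and rose by 2.37 (SE 0.20, adjusted p = 2.15e-05). Map3k8, a kinase upstream of ERK, rose by 2.58, and Ppp3cc, a catalytic subunit of calcineurin, by 1.85. All 4 were stable. So were the rises of Prnp, the prion protein gene (2.70), Septin4 (2.83), the T cell receptor gamma segment Trgv1 (2.76), Mettl22 (2.32), N4bp1 (2.11), Baiap3 (2.06), Sft2d2 (2.05), Cacnb1 (1.67) and Rab19 (1.64).

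Falls outside the lists included 2 genes of growth factor and cyclic nucleotide signalling. Igf1r, the receptor for insulin-like growth factors, read 7.51 and 7.11 with IL-4 and IL-7, against 9.51 and 9.22 with IL-7, and Pde7a, a phosphodiesterase of cyclic AMP, read 9.08 and 9.19, against 10.69 and 10.55 with IL-7. Of the 6 other probe sets of Pde7a, 5 also passed. Cd55, which protects cells from complement, fell by 1.57 (SE 0.23, adjusted p = 0.00214), Cpm, a membrane carboxypeptidase, by 1.84, and Slc9a7, a sodium and proton exchanger, by 2.00. These 5 were stable. Setd3 (-2.04), Eya2 (-1.86), Rps6ka5 (-1.79), Arhgap5 (-1.74) and Abca5 (-1.73) fell too, and failed in at least 2 of the 4 fits (highest adjusted p 0.0725 to 0.292).

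The same genes were then read in 2 comparisons of other arrays. In memory cells without IL-7, IL-4 against medium gave 267 genes past the threshold (1.94%). There, 165 of the 167 risen genes lay higher with IL-4 and 97 passed, and 81 of the 82 fallen genes lay lower and 38 passed. The direction was the same for 61.1% of all genes tested. These values rest in part on the library labelled as medium array 2. The 135 shared genes were 54.2% of the 249 and 50.6% of the 267. Without medium array 2, 212 genes passed, 133 of them among the 249 (53.4% of the 249 and 62.7% of the 212), and 167 of the risen genes lay higher, 80 of the fallen genes lay lower and 69.1% of all genes had the same direction. No gene passed the test of the difference between the IL-4 changes with and without IL-7 (0 called, limma), and 650 reached an unadjusted p under 0.05. Without medium array 1, when medium array 2 alone gave the level in medium, 1298 genes passed that test.

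In naive cells with IL-7, IL-4 gave 173 genes past the threshold (1.26%). There, 147 of the 167 risen genes lay higher and 64 passed, and 68 of the 82 fallen genes lay lower and 12 passed, while 48.4% of all genes tested had the same direction. The 77 genes called in both were 30.9% of the 249 and 44.5% of the 173. In all 3 comparisons 54 genes rose and 10 fell. The risen ones included D630039A03Rik, Cbr3, Pros1, Slc2a6, Tafa3, Ncoa7, H2-DMa, Cst7, Xbp1, Trat1, Stat2 and Hsd11b1. The fallen ones included H2-Ob, Neurl3, Klrd1, Pxylp1, Atp8b4, Cd84 and Cd55.

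**Figure D4:**
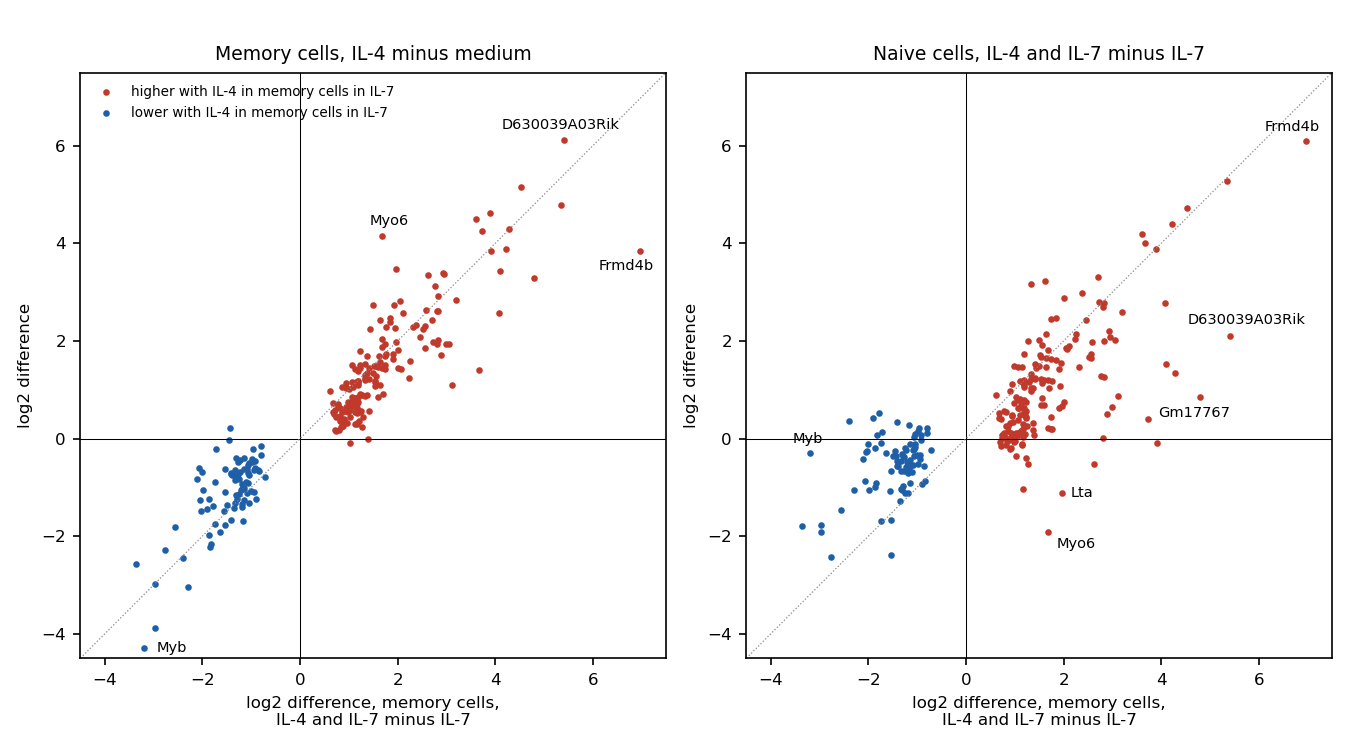
Each point is 1 of the 249 genes that rose (red) or fell (blue) in memory cells in IL-7, with its log2 difference there on the horizontal axis of both panels. The vertical axes give its log2 difference for IL-4 minus medium in memory cells (left) and for IL-4 and IL-7 minus IL-7 in naive cells (right), and the dotted line marks equal values. On the left 246 of 249 points keep their direction, and on the right 215 do.

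The difference between the memory and naive changes was tested directly and passed for 10 genes (0.0726%). In 6 the memory change lay above the naive one. Lta read 8.26 and 7.53 with IL-4 and IL-7, against 6.32 and 5.53 with IL-7, in memory cells, while naive cells read 7.49 and 8.57, against 9.13 and 9.14. Myo6, an unconventional myosin, read 8.56 and 9.08, against 7.65 and 6.63 with IL-7, in memory cells, while naive cells read 5.89 and 5.64, against 8.15 and 7.20. It was the 1 gene of the 249 that passed the opposite way in naive cells (-1.91, adjusted p = 0.00913), and its rise in memory cells passed in 2 of the 4 fits (highest adjusted p 0.215). D630039A03Rik reached similar levels with IL-4 in both, 10.37 and 10.23 in memory cells and 11.01 and 11.15 in naive cells, against 4.97 and 4.82 in memory and 9.09 and 8.88 in naive cells with IL-7.

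The other 7 genes followed several patterns. Ecm1, a secreted matrix protein, read 6.39 and 6.15 with IL-4 and IL-7, against 6.05 and 6.15 with IL-7, in memory cells, while naive cells read 6.40 and 6.84, against 10.11 and 10.31. Gm17767 and Tnfrsf18 had changes of 3.73 and 1.17 in memory cells, against 0.40 and -1.03 in naive cells. In memory cells with IL-7, Gm17767 read 4.17 and 3.45, near the filter value, so its rise there is uncertain in size. Ptpn3, Dhrs3, Papss2 and H2-Q2 had differences of 0.65, 0.25, -0.32 and 0.13 in memory cells, none past the threshold, and rose by 3.46, 2.01, 1.74 and 2.40 in naive cells. H2-Q2 lay under the filter value in memory cells and in naive cells with IL-7 (2.53 to 3.13), and Ptpn3 and Dhrs3 lay near it there (3.44 to 4.61), so small differences between the memory groups could not be measured for these 3 genes. Ecm1 and D630039A03Rik passed in all 8 fits that left out 1 array. The others missed the threshold in at least 1 of them, Lta, Tnfrsf18 and Dhrs3 in at least 6.

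**Figure D5:**
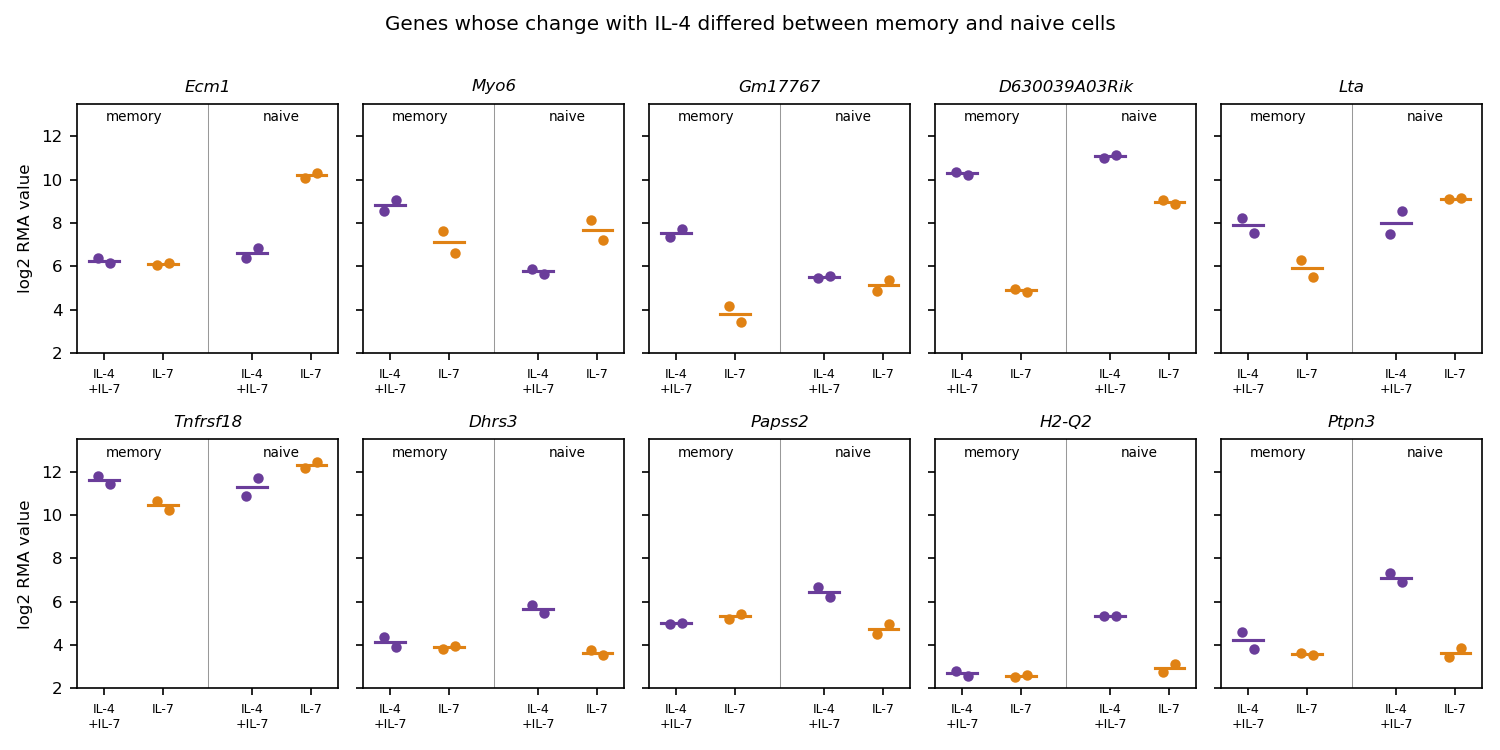
Points are the 2 arrays of each group and lines their means, on the log2 RMA scale, for the 10 genes whose change with IL-4 differed between memory cells (left of the grey line) and naive cells (right). On each side, cells in IL-4 and IL-7 stand left of cells in IL-7. Ecm1 lies between 6.05 and 6.39 in memory cells, and in naive cells at 6.40 and 6.84 with IL-4 and IL-7, against 10.11 and 10.31 with IL-7.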

How the data were processed

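The deposited values are log2 RMA values, background-corrected and normalised by the authors with RMA, which the submitters' processing notes name beside limma with no version. Per the labels' protocols, RNA was amplified and labelled with biotin for Affymetrix arrays. No genome build is given in the sources used here. GEO's platform annotation gave 34958 of 45101 probe sets 1 gene symbol, 932 several and 9211 none, and only the first kind was used. Each of 18194 genes was represented by its brightest probe set (mean of 18 arrays), and 13770 genes exceeding 4.06, the 40th percentile of the table, on at least 2 arrays were tested (4424 left out). The number of arrays limits the precision, and the median SE of the log2 difference was 0.228.

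A linear model with 1 mean for each of the 8 groups was fitted to all 18 arrays in limma 3.58.1 (R 4.3.3), giving 10 residual degrees of freedom and a prior of 4.13. Tests were two-sided, with p-values adjusted by Benjamini-Hochberg across the genes tested. The code was tested on simulated data. Promoter windows on chromosome 18 were not printed. The members and gene lists were chosen with earlier results of these data known. Named genes were, per list, up to 8 of the largest calls, up to 3 of the largest differences short of the threshold and preset key genes, and, outside the lists, the 25 largest rises and 15 largest falls. Same-numbered arrays of both groups deviated together (r = 0.251), and over the 6 pairs of cultured memory groups r ran from 0.00818 to 0.447. Pairs with the medium group, whose array 2 goes against its label, gave 0.0289, 0.00818 and 0.0974. The pairs without it gave 0.251, 0.435 and 0.447. There are only 2 replicate numbers. The labels do not say that a number marks one of the 2 cultured populations, so the replicate block is an alternative only. The other alternatives were the filter, the choice of probe set, median centring, the variance prior, array weights, the arrays in the fit and leaving out each array.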

Additional observations from a re-analysis of the deposited data

Results flagged for a closer look

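In the 10 genes described above the change with IL-4 differed between memory and naive cells, by the test of the difference itself (limma, Benjamini-Hochberg over 13770 genes). The memory minus naive difference in log2 change was 3.76 for Ecm1 (SE 0.35, adjusted p = 0.00045), 3.31 for D630039A03Rik (SE 0.37, adjusted p = 0.00205), 3.59 for Myo6 (SE 0.47, adjusted p = 0.00583) and 3.32 for Gm17767 (SE 0.42, adjusted p = 0.00583). It was 3.08 for Lta (SE 0.52, adjusted p = 0.0462) and 2.20 for Tnfrsf18 (SE 0.37, adjusted p = 0.0462). It was -2.81 for Ptpn3 (SE 0.37, adjusted p = 0.00583), -2.28 for H2-Q2 (SE 0.33, adjusted p = 0.0154), -2.05 for Papss2 (SE 0.30, adjusted p = 0.0154) and -1.76 for Dhrs3 (SE 0.26, adjusted p = 0.0154), where the naive change was the larger. Ecm1 and D630039A03Rik passed in all 8 fits that left out 1 array and with the replicate block (adjusted p = 0.0127 and 0.0141). The other 8 missed the threshold with the block (adjusted p 0.071 to 0.163) and in at least 1 of the 8 fits, Gm17767 and Myo6 in 1 (adjusted p 0.0627 and 0.0666), Ptpn3 in 3, Papss2 and H2-Q2 in 5, Lta and Dhrs3 in 6 and Tnfrsf18 in 7 (adjusted p up to 0.267).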

How the results depend on the processing

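No alternative turned the direction of a called gene named here, of the settings tried for the comparison in memory cells. The count of 249 was 246 with no filter, 247 with the 60th percentile as filter, 280 with the mean of a gene's probe sets (187 shared), 239 with an intensity trend and robust prior, and 171 with the replicate block (131 shared). Among the calls lost with the block were Il4ra (adjusted p = 0.0914), Il18r1 (0.0858), Il12rb1 (0.128) and Klrd1 (0.0573). Among those gained were S1pr1 (0.0429) and Ccr9 (0.0275). Genes called stable were not chosen by their result with the block. Median centring gave 251, of which 143 rose and 108 fell (205 shared). It was 538 without medium array 2 of memory cells, 998 with array weights, 1035 with only the 4 arrays compared, 87 with only the 8 cultured memory arrays, and 115 with only the 12 cultured arrays, a setting chosen after seeing the data. Leaving out 1 array gave 76 to 147. The 10 genes that differed between memory and naive cells became 20 without medium array 2, 3 with the replicate block (Ecm1 and D630039A03Rik among them), 6 with the stricter filter, and 2 to 368 without 1 array, the highest without naive IL-4 and IL-7 array 2. The difference with and without IL-7 stayed at 0 with the replicate block, both filters, the probe-set mean, median centring and the other prior, and was 0 to 1298 without 1 array. Fits with 1 array in a group take its spread from elsewhere, and the cause of these shifts was not tested. Genes near the filter value have no measured background, so large rises of Metrnl, Slc2a6, Frmd4b, Gm4951, Gm17767 and Lif are uncertain in size.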

Other observations

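Several regulators fell short of the threshold with all arrays but passed when medium array 2 of memory cells was left out. Mxd1, an antagonist of MYC, read 10.66 and 10.32 with IL-4 and IL-7, against 8.14 and 8.34 with IL-7 (adjusted p = 0.0892, and 0.000369 with it left out). Cdc25b, a phosphatase that activates cyclin-dependent kinases, read 8.57 and 8.71, against 10.70 and 11.09 with IL-7 (0.113 and 0.000183). Nfil3, a factor of innate and helper lymphocytes, read 6.13 and 5.89 with IL-4 and IL-7, against 4.44 and 4.61 with IL-7 (0.405 and 0.00755), and Socs3 read 11.99 and 11.89, against 10.95 and 9.93 (0.304 and 0.00648). The groups lay apart for all 4 genes, as they did upward for 34.3% and downward for 21.5% of all genes tested. Spsb1, a substrate adaptor of a ubiquitin ligase, read 10.20 and 9.18, against 7.13 and 6.96 with IL-7 (0.0659 and 0.00234), and Cd28, the costimulatory receptor gene, read 9.22 and 8.31, against 10.17 and 10.67 (0.0728 and 0.00681).

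Alas2, a haem synthesis gene on the red cell precursor list, followed the replicate number and not the treatment, with 10.03 and 7.15 with IL-4 and IL-7, against 10.09 and 7.05 with IL-7. Over all genes, IL-4 and IL-7 array 1 lay closer to IL-4 arrays 1 and 2 (SD 0.279 and 0.294) than to its own replicate (0.357).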
